A study of Mus musculus with 54 samples.

Results

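Replication timing was compared between mouse embryonic fibroblasts (MEFs) and embryonic stem cells (ESCs) grown in 2i medium, along the autosomes of hybrids between the 129 and castaneus (Cas) strains. The comparison used the libraries of 4 MEF embryos and of 5 ESC lines without feeders. These were 34 of the 54 libraries of the series, and they form 17 of its 27 profiles, since each profile joins an early and a late S phase library. Repli-Seq marks newly made DNA with BrdU, separates cells by DNA content into early and late S phase, and sequences the labelled DNA of each fraction. The measure is the log ratio of early to late signal in windows of 50 kb, read here as log2, and a higher value means earlier replication.

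The ESC lines were F121, with 1 profile, and F121-6, F121-9, F123 as well as Cas129, with 2 profiles each. The labels give F123 as male and the other 4 lines as female. They put 129 first in the cross of the F121 lines and F123, and Cas first in the cross of Cas129. All 5 lines were grown on gelatin in N2B27 medium with LIF, a MEK inhibitor and a GSK3 inhibitor, the mix called 2i. The MEFs came from embryos with Cas first in the cross, were grown in DMEM with serum, and were profiled 2 times per embryo. Embryos 1 and 2 are labelled female, embryos 3 and 4 male. Whether F121, F121-6 and F121-9 share an origin, whether embryos were littermates and the age of the embryos are not given in the sources used here, so the p-values measure the spread between these lines and embryos. Cell type, culture medium and the scaling of the deposited values cannot be told apart, since every ESC line had 1 set of conditions and every embryo the other. A profile averages over all cells of a culture, so a change in the share of cells of a kind and a change of timing within each cell cannot be told apart either.

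The genome is copied in large domains that fire their origins at characteristic times in S phase. Early domains are generally rich in genes and open chromatin, and late domains are poor in genes and often lie at the nuclear lamina. When cells differentiate, some domains switch between early and late, and genes in a domain that becomes early are more often expressed, although timing is not a measure of expression. The 2i medium holds ESCs in a state close to the naive epiblast, whereas MEFs are mostly mesenchymal cells that make collagen-rich matrix.

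The profiles fell into 2 tight sets. Across the 43941 autosomal windows, which are neighbours of each other and not independent, Pearson's r was 0.988 to 0.996 between profiles of different embryos and 0.905 to 0.983 between profiles of different ESC lines. Between a MEF and an ESC profile it was 0.721 to 0.810. The ESC lines varied more than the embryos, with a median SD per window of 0.356 against 0.132. Repeat profiles also agreed less in ESCs, with r of 0.9731 to 0.9869 within a line against 0.9949 to 0.9965 within an embryo. How much of the SD comes from differences between repeats was not tested. The X chromosome was left out of the comparison and served only to look at the labels. The deposited 129 track of the X was flat in embryo 1, labelled female (SD over X windows 0.231), and in embryo 4, labelled male (0.188), while embryo 2, labelled female, and embryo 3, labelled male, had variable tracks (1.29 and 1.30). Embryos 1 and 3 therefore go against their sex labels, and without both the number of called windows was 9186 earlier and 9927 later, against 9148 and 9899 with them.

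Large parts of the genome differed in timing between the cell types. Of 43941 windows, 9148 (20.8%) replicated earlier in MEFs and 9899 (22.5%) later, together 43.3%, by limma, with calls made where the p adjusted by Benjamini and Hochberg was below 0.05 and the groups differed by 1 or more on the log2 scale. Called windows that were earlier in MEFs had a median level of -1.83 in ESCs and 0.61 in MEFs. The windows that were later in MEFs went from 0.39 to -1.74. Differences of 3 or more were found in 2551 called windows, of which 1612 were earlier and 939 later in MEFs. All 4 embryos lay above all 5 ESC lines in 28.7% of all windows and below them in 32.4%. The groups did not overlap in 98.7% of the called windows, which largely follows from the call, since it uses the same values.

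**Figure D1:**
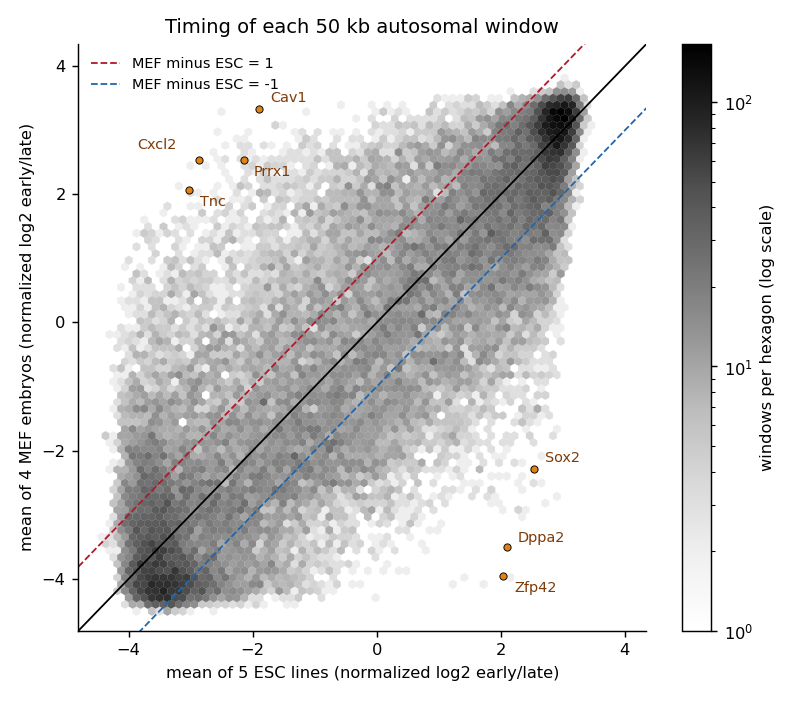
Each hexagon counts 50 kb windows by their mean level in 5 ESC lines (horizontal, normalized log2 early/late) and in 4 MEF embryos (vertical), with darker hexagons holding more windows on a log scale. The dashed lines mark a difference of 1, and 7 genes of the gene lists are marked, with Cav1 and Cxcl2 far above the upper line and Zfp42, Dppa2 and Sox2 far below the lower one.

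The near-equal numbers in the 2 directions depend on how the columns were put on 1 scale. Earlier windows made up 48.0% of called windows after quantile normalization, 68.7% on the deposited values and 39.5% after centring on the median and scaling by the median absolute deviation (MAD). The median difference over all windows was -0.06, 0.38 and -0.22 in these settings. No called window was called in the opposite direction in either of the other settings. The directions below are therefore relative to the genome as a whole.

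Few windows crossed between the ends of the range. With windows split into 3 equal classes by their mean level in each cell type, 392 windows, 2.68% of the latest class in ESCs, were in the earliest class in MEFs. In the opposite direction 251 windows, 1.71% of the earliest class, reached the latest. The same class was kept by 74.7% of the latest, 54% of the middle and 74.9% of the earliest windows. V6.5 ESCs, a hybrid of C57B6 and 129 that took no part in the fit, gave an independent ranking of where windows stand in ESCs. Windows earlier in MEFs were 32.0% of the third decile from the late end in V6.5 and 0.250% of its earliest decile. Windows later in MEFs were most frequent in the fifth decile, at 33.0%, and made up 8.79% of the earliest. Even in the latest decile 22.4% of windows were earlier in MEFs.

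Chromosomes took unequal parts. Chromosome 13 had the highest share of called windows, 55.3%, and chromosome 11 the lowest, 28.3%. Chromosome 3 was the one with most windows earlier in MEFs, 32.3%, against 20.1% later. On chromosome 14 the shares were 18% earlier and 27.2% later.

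The called windows formed 1305 regions of at least 200 kb. There were 569 regions earlier in MEFs, covering 448.4 Mb with a median length of 600 kb, and 736 regions later in MEFs, covering 486.8 Mb with a median of 500 kb. At least 1000 kb were spanned by 139 and 135 of them. The longest earlier region ran over 5750 kb of chromosome 3, from 143200001 to 148950000 (mm10), and held 35 protein-coding genes, with Col24a1, a fibrillar collagen, Odf2l and Clca2 nearest to its peak. Its mean level was -1.92 in ESCs and 0.55 in MEFs. The longest later region covered 4250 kb of chromosome 13, from 18350001 to 22600000, and held 78 protein-coding genes, with Amph, Vps41 and Stard3nl nearest to the window of largest difference. Its mean went from 0.35 to -1.72.

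The 10 regions with the highest mean change towards early replication in MEFs included 2 with chemokine genes, 1 with caveolins and 1 with ADAMTS proteases. The largest mean difference lay on chromosome 5 from 90400001 to 91600000, around Mthfd2l, Epgn, an EGF family ligand, and Cxcl2, a chemokine that attracts neutrophils. It was -2.11 ± 0.18 (SD, n = 5) in ESCs and 1.80 ± 0.06 (n = 4) in MEFs. The ESC lines ranged from -2.38 in F123 to -1.90 in Cas129 and the embryos from 1.75 to 1.88, so the groups were far apart. Rbms3, an RNA-binding protein, with Zcwpw2 on chromosome 9 had a mean difference of 3.70, and Dnm3, a dynamin, with 4930558K02Rik and Pigc on chromosome 1 had 3.67. Nrp1, a semaphorin and VEGF co-receptor, Itgb1, the common beta chain of many matrix receptors, and Pard3 on chromosome 8 also had 3.67.

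The caveolae genes Cav1 and Cav2 with Tes, a focal adhesion protein, lay in a region of chromosome 6 from 16500001 to 18050000 with a difference of 3.65. The other 5 were the secreted proteases Adamts5 and Adamts1 with Cyyr1 (3.58), Plk2, Gapt and Rab3c (3.56), 1700034E13Rik, Gykl1 and Zfp474 (3.46), the death receptor Fas with Ch25h and Lipa, which act on cholesterol (3.43), and the monocyte and eosinophil chemokines Ccl2, Ccl7 and Ccl11 (3.42). The adjusted p of the peak window was 3.45e-10 or lower in all 10.

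The 10 regions with the highest mean change towards late replication in MEFs had varied genes nearest to their peaks. The largest lay on chromosome 13 from 66900001 to 68100000, with 31 protein-coding genes and Mterf3, Ptdss1 and Gm10767 nearest to its peak. Its level was 2.64 ± 0.16 (SD, n = 5) in ESCs and -1.81 ± 0.04 (n = 4) in MEFs. Gm14410 on chromosome 2 followed with a mean difference of -3.94, and Nlrp4f, Zfp369 and Olfr466 on chromosome 13 with -3.73. The region of Triml2, Triml1 and the ESC marker Zfp42 on chromosome 8, from 42500001 to 43900000, had -3.72.

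Zfp976, Zfp977 and Zfp975 led a region of 3650 kb with 93 protein-coding genes on chromosome 7 (-3.67). Then came Gm51425 (-3.56), the cathepsins Cts3 and Ctsm with Gm21933 (-3.53), Dppa2, Morc1 and Dppa4 (-3.49), Cd86, Casr and Ildr1 (-3.47) and Garem1, Mep1b and Rnf138 (-3.25). Morc1 represses transposons in male germ cells, and Dppa2 and Dppa4 are chromatin proteins of the early embryo. The peak windows had an adjusted p of 2.40e-08 or lower. All 20 regions kept their direction and the call of their peak window under every setting tried.

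**Figure D2:**
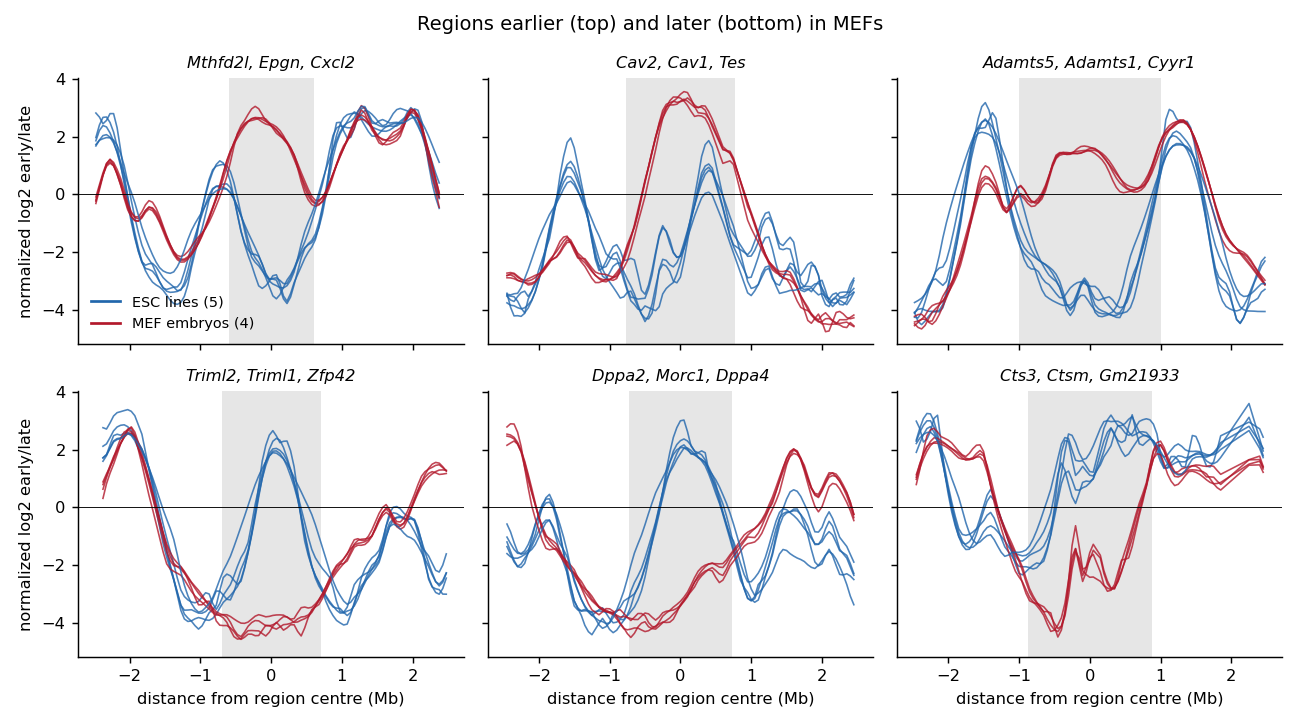
Normalized log2 early/late (vertical) against the distance from the region's centre in Mb (horizontal) for 3 regions earlier (top) and 3 later (bottom) in MEFs, with 1 line for each of 5 ESC lines (blue) and 4 MEF embryos (red) and the region shaded. Around Cxcl2, Cav1 and Adamts5 the MEF tracks rise to a peak or plateau where the ESC tracks form a valley, and around Zfp42 and Dppa2 an ESC peak is replaced by late replication over the whole region.

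Genes were placed by their 5' end, or by their midpoint where no strand was given. Of 19694 placed protein-coding genes, 2262 (11.5%) lay in windows earlier in MEFs and 4366 (22.2%) in windows later in MEFs. Over all genes the median level was 2.22 in ESCs and 1.92 in MEFs, and the median difference was -0.04. The gene lists that follow are read against these shares and this median. These are not matched for the level in ESCs, from which the lists start unequally. The median ESC level was 0.05 in the fibroblast matrix list and 2.91 in the housekeeping list, for example. The part of this starting level in the counts of a list was not tested.

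The pluripotency list held no gene that became earlier and 16 of 34 that became later in MEFs (47.1%), with a median difference of -0.94. Zfp42, also called Rex1, a zinc-finger gene used as a marker of naive ESCs, stood at 1.98 in F121, 2.24 in F121-6, 2.33 in F121-9, 1.86 in F123 and 1.79 in Cas129. In embryos 1 to 4 it stood at -3.88, -4.10, -4.13 and -3.72. It moved from clearly early to among the latest windows, a difference of -6.0 (SE 0.17, adjusted p = 7.26e-11 by limma).

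The chromatin genes Dppa2 and Dppa4, which are neighbours, had differences of -5.60 and -5.48. For Dppa2 the ESC lines lay between 1.67 and 2.77 and the embryos between -3.63 and -3.36. Sox2, a core pluripotency factor that is also used by neural precursors, stood at 2.63 in F121, 2.33 in F121-6, 2.56 in F121-9, 2.70 in F123 and 2.47 in Cas129. The embryos had -2.44, -2.39, -2.46 and -1.87, a difference of -4.83 (SE 0.17, adjusted p = 1.23e-10). Neural precursor cells (NPCs), which keep Sox2 in use, had 1.35 as the mean of 2 lines, against -3.69 at Zfp42. Fbxo15, an F-box gene of ESCs, had a difference of -3.83.

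The other 11 called genes of the list were chosen for naming because they complete it, after their values were seen. They were the DNA demethylase Tet2 (-3.45), Prdm14 (-3.44), the nuclear receptor Nr5a2 (-3.21), Otx2 (-2.76), Tbx3 (-2.67), Gdf3 and Dppa3 in 1 shared window (-2.31), Utf1 (-2.13), Nanog (-1.70), Esrrb (-1.55) and Klf5 (-1.38). Nanog did not separate the groups fully. F121-6 had 0.48 there, against 2.08 to 3.17 in the other ESC lines, and the embryos had 0.42 to 0.84.

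The 18 genes not called were mostly early in both cell types. Pou5f1, which encodes Oct4, had 2.60 ± 0.67 in ESCs and 3.01 ± 0.06 in MEFs (difference 0.41, adjusted p = 0.217), and Klf4 had 2.52 ± 0.27 and 2.22 ± 0.18 (difference -0.30, adjusted p = 0.148). These were singled out after their values were seen. The timing of Tbx3, which MEFs can also express, and of Otx2, a factor of the primed epiblast, is listed with the pluripotency genes without any reading of their activity.

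The fibroblast matrix and surface list moved the opposite way. Of its 35 genes, 19 became earlier in MEFs (54.3%) and none became later, with a median difference of 1.58. Cav1, the main coat protein of caveolae, had -1.68 in F121, -1.88 in F121-6, -2.29 in F121-9, -1.78 in F123 and -1.87 in Cas129. Embryos 1 to 4 had 3.30, 3.25, 3.56 and 3.24. The difference was 5.23 (SE 0.16, adjusted p = 9.19e-11).

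Tnc, which encodes the matrix glycoprotein tenascin C, had -3.42 to -2.49 in the ESC lines and 1.99 to 2.14 in the embryos (difference 5.09). Cd44, the hyaluronan receptor, had a difference of 4.93, Lox, which cross-links collagen and elastin, 4.17, and Postn, or periostin, 3.64. The groups did not overlap at any of these genes, as in 98.7% of all called windows. Other members stayed early in both: Col1a1, a chain of type I collagen that was singled out after its values were seen, had 2.25 to 3.01 in ESC lines and 2.98 to 3.62 in embryos, and its difference of 0.81 missed the size threshold of 1.

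**Figure D3:**
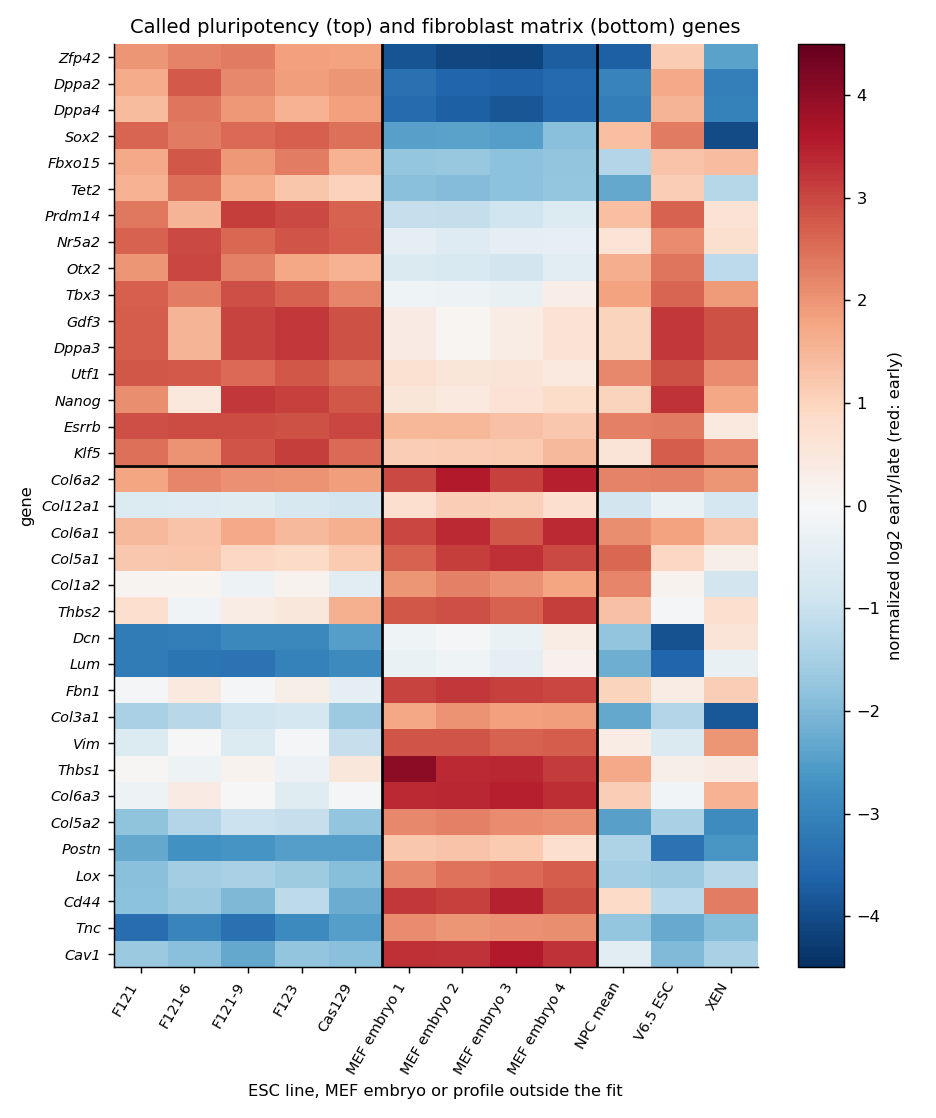
Normalized log2 early/late (colour, red for early and blue for late) at the 16 pluripotency genes (top) and 19 fibroblast matrix genes (bottom) that were called, in each ESC line, each MEF embryo and in NPC, V6.5 and XEN profiles outside the fit. The ESC lines are red at the pluripotency genes while embryos run from blue to pale red, from -3.96 at Zfp42 to 1.38 at Esrrb, and V6.5 follows the ESC lines in colour.

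The promoters of 4 of these genes, Zfp42 and Sox2 from the pluripotency list and Cav1 and Tnc from the matrix list, are printed as examples of what lies at the start of genes with differences near 5 or above, since CpG-rich promoters are typical of early domains. They are not the 4 genes with the largest differences. Each sequence covers 250 bases before to 50 after the start of the gene (RefSeq, GRCm38.p6), 5′ to 3′ on the strand of the gene, with CpG dinucleotides in capitals.
Zfp42 (chr8:43306960-43307259, minus strand): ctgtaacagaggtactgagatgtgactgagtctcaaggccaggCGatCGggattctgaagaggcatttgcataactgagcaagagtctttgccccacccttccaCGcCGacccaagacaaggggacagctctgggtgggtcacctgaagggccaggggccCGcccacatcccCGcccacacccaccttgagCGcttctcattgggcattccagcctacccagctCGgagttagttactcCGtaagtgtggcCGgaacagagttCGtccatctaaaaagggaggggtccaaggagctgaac
Sox2 (chr3:34649745-34650044, plus strand): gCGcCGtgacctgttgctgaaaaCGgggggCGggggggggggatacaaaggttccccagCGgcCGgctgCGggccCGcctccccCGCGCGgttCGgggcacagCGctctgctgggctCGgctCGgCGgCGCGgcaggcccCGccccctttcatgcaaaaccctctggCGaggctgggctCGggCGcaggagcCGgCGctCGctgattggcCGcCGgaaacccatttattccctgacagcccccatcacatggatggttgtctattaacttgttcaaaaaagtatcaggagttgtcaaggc
Cav1 (chr6:17306085-17306384, plus strand): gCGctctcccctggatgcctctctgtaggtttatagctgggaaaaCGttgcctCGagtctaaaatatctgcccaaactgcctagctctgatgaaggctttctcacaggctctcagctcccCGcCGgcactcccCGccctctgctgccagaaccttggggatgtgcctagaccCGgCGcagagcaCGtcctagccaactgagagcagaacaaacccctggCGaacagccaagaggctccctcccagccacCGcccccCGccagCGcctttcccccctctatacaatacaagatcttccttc
Tnc (chr4:64046966-64047265, minus strand): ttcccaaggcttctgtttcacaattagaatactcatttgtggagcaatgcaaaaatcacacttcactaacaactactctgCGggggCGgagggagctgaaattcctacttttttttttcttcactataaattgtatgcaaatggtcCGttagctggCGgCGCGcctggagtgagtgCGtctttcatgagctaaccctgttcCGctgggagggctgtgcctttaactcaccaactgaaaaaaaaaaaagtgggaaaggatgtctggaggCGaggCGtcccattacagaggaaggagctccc
They hold 11, 27, 13 and 10 CpG in this order. Over 15722 genes with a promoter in the table the median was 14 CpG. It was 12 in genes that became earlier in MEFs, 8 in those that became later and 16 in genes that were not called. Genes that were not called and lay in the latest class of windows in both cell types had a median of 2, and those in the earliest class in both had 19. The genes that changed thus lay between the stable classes in CpG content. Gene density also lay between those of the stable classes, with earlier and later windows in the reverse order: the median number of protein-coding gene starts within 500 kb was 4 for earlier windows, 5 for later ones, 1 for stable late and 15 for stable early windows. Olfactory and vomeronasal receptor genes, which are numerous and late in MEFs, are part of the later class and were not separated in these medians.

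Transcription factors of mesenchyme shifted with the matrix genes. Of 27 listed, 12 became earlier in MEFs (44.4%) and 1 later, with a median difference of 0.85. Prrx1, a homeobox gene of limb and craniofacial mesenchyme, had -2.35 to -1.99 in the ESC lines and 2.35 to 2.83 in the embryos, a difference of 4.67 (SE 0.16, adjusted p = 1.15e-10). Runx1 had a difference of 3.89, Osr1 3.04, Twist1 2.56 and Foxc2 2.44. Twist1 stayed below 0 in MEFs, at -0.75, whereas Prrx1, Runx1 and Foxc2 rose above 2. The one gene that became later was Tbx5, a factor of heart and forelimb (1.07 in ESCs, -0.98 in MEFs).

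Among contractile genes, 3 of 14 became earlier in MEFs (21.4%, against 11.5% of all genes) and none later. They were Acta2, smooth muscle actin (-1.69 ± 0.51 to 2.74 ± 0.18), the actin-binding gene Cald1 (difference 2.64) and the kinase gene Mylk (1.48). As at most called windows, the groups did not overlap at Acta2, where the ESC lines reached no higher than -1.18. On the deposited values, and with Cas129 as the only ESC line, 7 of the 14 were earlier.

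Chemokine and cytokine genes had the highest share of genes that became earlier, 15 of 23 (65.2%), with a median difference of 1.84. These 23 genes lie in 18 windows, since the Cxcl and Ccl genes are clustered, so they are fewer than 23 separate observations. Cxcl2 had -2.88 in F121, -2.73 in F121-6, -2.82 in F121-9, -3.16 in F123 and -2.76 in Cas129. The embryos had 2.44, 2.61, 2.53 and 2.56, a difference of 5.4 (SE 0.15, adjusted p = 7.26e-11). Cxcl1 followed with 5.29, and Cxcl3, Cxcl5 and Cxcl15 shared a window with 4.99. The interleukin genes Il1a (-1.32) and Il1b (-1.59), which neighbour each other on chromosome 2, became later.

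In the TGF-beta and BMP pathway, ligand and receptor genes were called in both directions. The shares earlier were 15% of ligands and 36.4% of receptors, against 11.5% of all genes. The shares later were 20% and 9.09%, against 22.2%. Ligands bind pairs of type I and type II receptors, which phosphorylate SMAD proteins. Of 20 ligand genes, Inhba (4.04), Gdf7 (1.86) and Bmp2 (1.53) became earlier, and Gdf3 (-2.31), Bmp7 (-1.69), Tgfb3 (-1.37) and Gdf6 (-1.27) became later. Inhba, which encodes the activin beta A chain, went from -2.84 ± 0.42 in ESCs to 1.20 ± 0.17 in MEFs. Of 11 receptor genes, 4 became earlier: Tgfbr2, the type II receptor for TGF-beta (difference 3.8), Bmpr1b (3.66), the co-receptor Tgfbr3 (2.49) and Tgfbr1 (1.90). The windows used for Tgfbr2 and Tgfbr1 are the nearest ones with values and lie beside these genes, not over them. Acvr1 became later (-1.36), the other 6 were not called, and the median of the 11 was 0.03.

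Of 8 SMAD genes, the BMP-responsive Smad5 (1.97) and Smad1 (1.43) became earlier (25%, against 11.5% of all genes) and none later. Of 15 inhibitors and binders, 3 became earlier (20%) and 1 later (6.67%, against 22.2% of all genes). Grem1, a BMP antagonist of mesenchyme, went from -1.27 ± 0.23 to 2.19 ± 0.13, and Fstl1 had a difference of 1.98. Bambi, a pseudoreceptor, became later (-2.74).

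Matrix and adhesion families differed from each other in their counts. The share earlier was 42.9% in collagens, 42.1% in ADAMTS proteases, 33.3% in integrins and 13.6% in cadherins, against 11.5% of all genes. The share later was 11.9%, 21.1%, 0% and 31.8% in this order, against 22.2%. Of 42 collagen genes, 18 became earlier in MEFs and 5 later, led by Col8a1 (4.46), Col24a1 (3.89) and Col15a1 (3.62) on one side and Col10a1 (-2.40) and Col13a1 (-1.52) on the other. ADAMTS proteases had 8 earlier and 4 later of 19, with Adamts5 at 5.01 and Adamts1 at 4.77. Of 24 integrin genes, 8 became earlier and none later, among them Itga2 (3.46) and Itgb1 (3.35), and 14 were earlier on the deposited values. The MMP proteases had none earlier and 5 later of 23 (21.7%, near the 22.2% of all genes). The later ones were led by Mmp7 (-1.87), and 4 of these 5 genes are neighbours on chromosome 9. Of 22 cadherin genes 3 became earlier, including Cdh11, the cadherin of mesenchyme (3.19), and 7 later.

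The endothelial, blood, skeletal muscle and epithelial lists, of other cells that a MEF culture can hold, had genes called in both directions. Their shares earlier in MEFs were 14.3%, 14.3%, 16.7% and 28.6% in this order, against 11.5% of all genes. The shares later were 21.4%, 14.3%, 25% and 14.3%, against 22.2%. Endothelial genes had 2 earlier (Cdh5 and Emcn, both 1.59) and 3 later (Sox17, Esam and Robo4) of 14. Blood genes had 2 earlier and 2 later of 14, and the pan-leukocyte gene Ptprc had the largest difference of the list, from -3.47 ± 0.27 to 0.54 ± 0.07 (difference 4.01, adjusted p = 3.82e-10). Skeletal muscle genes had 2 earlier, Myf5 and Myf6 in 1 shared window, and 3 later of 12. Epithelial genes had 4 earlier and 2 later of 14, with the basal epithelial factor Trp63 at 3.79, but only 2 earlier without F121-6. Timing carries no measure of how many such cells were present, and their part in these results was not tested.

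Neural genes lay near the background, with a median difference of -0.01. Of 22 genes, 6 became later in MEFs (27.3%, against 22.2% of all genes), namely En2 (-3.0), Nkx2-2 (-2.85), Pax6 (-1.82), Neurog2 (-1.81), Pou3f2 (-1.66) and Sox1 (-1.08), and Olig2 (1.13) became earlier. Sox1 missed the size threshold without embryos 1 and 3 (-0.98). GABA-A receptor genes had none earlier and 8 later of 16 (50%). Of 18 SOX genes 7 became later (38.9%). The 2 that became earlier (11.1%) were Sox4 (1.91) and Sox11 (1.17), but Sox11 was not called without Cas129 (0.88). The later ones included the endoderm and endothelial factor Sox17 (-3.14) and Sox6 (-2.30). PAX genes had 4 later of 9 (44.4%), Pax1, Pax6, Pax5 and Pax7. Of 19 WNT genes, Wnt2 (2.78), Wnt5a (2.47), Wnt16 (2.09) and Wnt7b (1.30) became earlier (21.05%) and none later. On the deposited values 12 WNT genes were earlier. FGF genes included Fgf7, a growth factor made by mesenchyme (2.99), and Fgf14 (-3.63), with 4 earlier (20%) and 3 later (15%) of 20. Forkhead factors had 9 earlier (21.95%) and 8 later (19.5%) of 41, and T-box factors 1 (8.33%) and 2 (16.7%) of 12. Ionotropic glutamate receptors had 3 (17.65%) and 5 (29.4%) of 17, and voltage-gated potassium channels 7 (18.4%) and 5 (13.2%) of 38. The shares in this paragraph stand against 11.5% earlier and 22.2% later over all genes, and several lie near these.

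Germline and endoderm genes were called in both directions. Their shares earlier in MEFs were 44.4% and 27.8%, against 11.5% of all genes. The shares later were 22.2% and 16.7%, against 22.2%, so neither was above that of all genes. Of 18 germline genes, 8 became earlier, with Asz1 (2.78), in a window shared with Wnt2, and Sohlh2 (2.77) first, and 4 later: Sycp3 (-2.95), Dmrt1 (-2.86), Mov10l1 (-1.94) and Mael (-1.61). The windows used for Asz1 and Mov10l1 are the nearest ones with values and lie beside these genes. Of 18 endoderm genes, 5 became earlier, led by the endocytic receptor Cubn (3.91) and Dab2 (3.11). The 3 that became later were Ttr, the transthyretin gene (-4.07), Sox17 and Sox18 (-1.01). Sox18 was at the threshold and was not called without F121 (-0.89), F123 (-0.999), embryo 1 (-0.99) or embryo 4 (-0.94).

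The HOX clusters showed no called gene among 39, in 13 windows, with differences from -0.22 to 0.47. They were early in both cell types, with a median level of 2.63 in ESCs and 2.72 in MEFs. Of 18 housekeeping genes, 16 were not called, and Sdha, a subunit of succinate dehydrogenase (3.0 ± 0.29 to -0.16 ± 0.19), and Tbp (difference -1.12) became later. Tbp was not called without F121-6 (-0.95). Ribosomal protein genes had none earlier and 12 later of 73, led by Rpl39l (-2.98) and Rps7 (-2.27). Their share of later genes, 16.4%, was below that of all genes.

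Genes of the replication machinery were more often later than earlier in MEFs, as were all genes. Of 27 such genes, 8 became later: the origin recognition subunits Orc3 (-2.89) and Orc5 (-2.43), Gins1 (-2.70), Dbf4, the activator of the Cdc7 kinase (-2.70), and the helicase subunits Mcm4 (-2.32), Mcm7 (-1.76), Mcm6 (-1.53) and Mcm3 (-1.31). Cdc7 itself became earlier (-0.27 ± 0.55 to 2.15 ± 0.13, difference 2.41). The 8 later genes are 29.6% of the list against 22.2% of all genes, and the earlier one is 3.70% against 11.5%.

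Large gene families of sensory receptors and zinc-finger proteins had higher shares of later genes than the 22.2% of all genes. Of 967 olfactory receptor genes 474 became later (49.0%) and 36 earlier, but they lie in 440 windows. Of 257 vomeronasal receptor genes 135 became later and 5 earlier, or 8 earlier without Cas129. The later counts depend on the scale: on the deposited values 343 olfactory and 76 vomeronasal genes were later and 75 and 21 earlier, and on percentile ranks 288 and 58 were later. Both families were already late in ESCs, with median levels of -1.51 and -1.56, and stood at -2.93 and -2.77 in MEFs. Genes whose symbols begin with Zfp differed from them in their starting level. The 337 Zfp genes were early in ESCs (median 2.63), and 153 became later (45.4%) and 11 earlier. Zfp970 on chromosome 2 was placed in the window with the largest difference of all in that direction, from 3.21 in ESCs to -3.49 in MEFs (difference -6.70, SE 0.38, adjusted p = 4.63e-09). That window is the nearest one with values and lies beside the gene, not over it. Zfp976, Zfp141 and Zfp977, all in the chromosome 7 cluster, followed with -6.46, -6.40 and -6.33. Reads of near-identical family members are hard to assign, and how the authors treated them is not stated in the sources used here.

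Keratin genes had 16 earlier (32.65%, against 11.5% of all genes) and none later of 49. But they lie in 25 windows, and the 5 with the largest values, between 1.44 and 1.52, fall in 2 windows. With Cas129 as the only ESC line, none of the 16 was called.

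**Figure D4:**
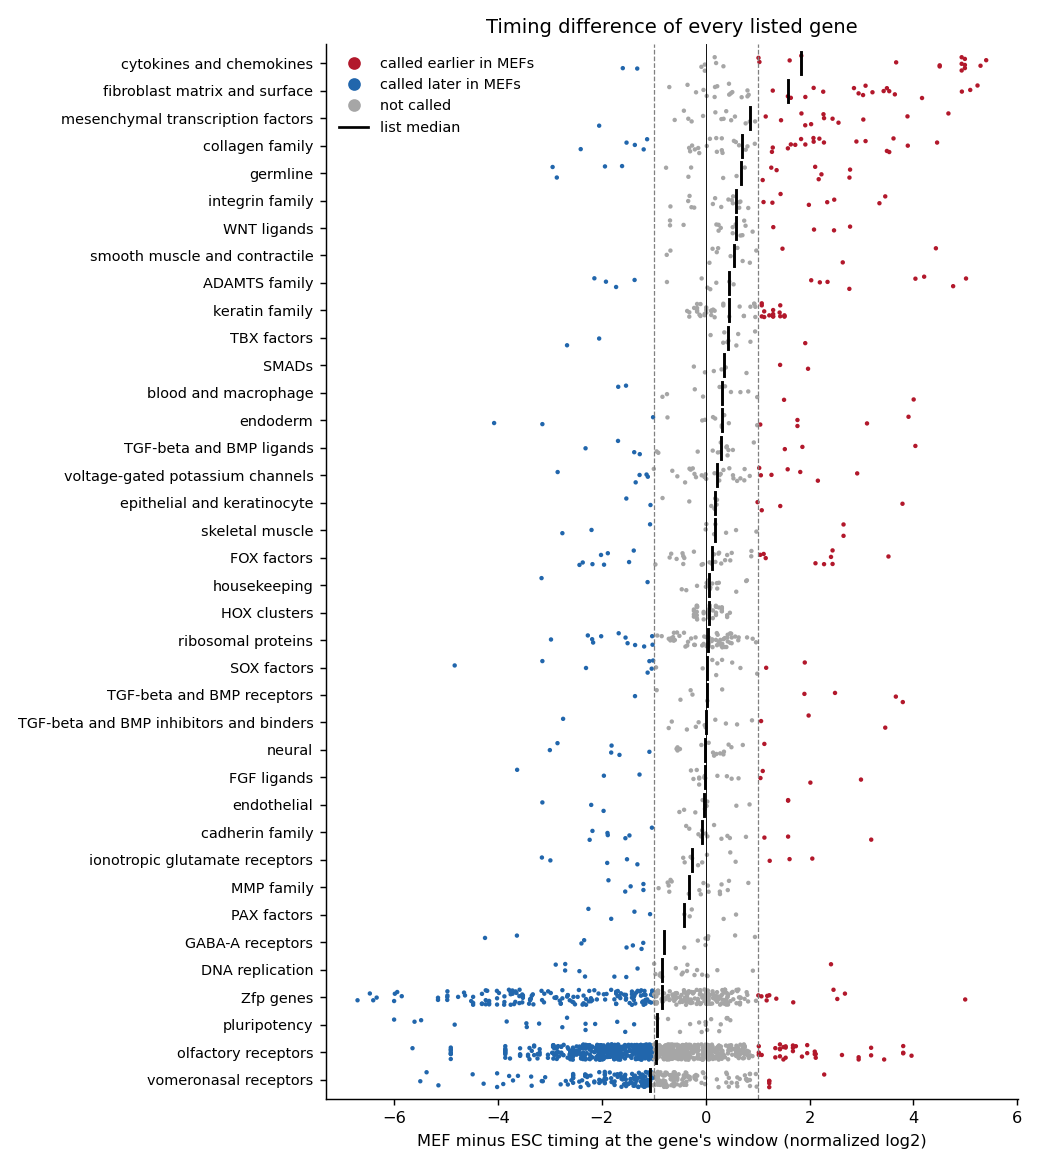
Each point is a gene of a list (rows), placed by its MEF minus ESC difference (horizontal, normalized log2), coloured by call, with the list's median as a black bar and dashed lines at -1 and 1. Lists are sorted by their median, from vomeronasal and olfactory receptors and pluripotency genes at the bottom to fibroblast matrix genes and chemokines at the top, and the HOX points all lie between the dashed lines.

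At the called windows, profiles outside the fit differed in which side they lay on. Their position was read against the ESC and MEF means, which define the windows, so closeness to 1 side is a description. V6.5 ESCs lay nearer the ESC mean in 83.1% of the windows earlier in MEFs and in 81.5% of those later. F121-6 and F121-9 on feeders, which are the same lines as in the fit, lay nearer the ESC mean in 89.6% to 95.8%. NPCs from F121-9 and Cas129 lay nearer the MEF mean in 52.0% and 48.1% of the earlier windows and in 59.1% and 55.7% of the later ones. The extraembryonic endoderm (XEN) line, a hybrid of C57B6 and Cas, did so in 44.7% and 46.0%. Both the NPC mean and XEN were nearer the MEF mean in 25% of earlier and 29.2% of later windows, and both were nearer the ESC mean in 30.5% and 24.9%.

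Single genes fell on either side. At Zfp42, Dppa2 and Dppa4 the NPC means of -3.69, -3.02 and -3.09 and the XEN values of -2.42, -3.08 and -3.04 were late like MEFs. At Fbxo15 the NPC mean was late (-1.31) and XEN early (1.41), and at Sox2 the NPC mean was early (1.35) and XEN late (-4.04). At Tnc, Lox and Postn the NPC means of -1.74, -1.54 and -1.38 stayed on the late side, as did XEN at -1.91, -1.26 and -2.60. At Cav1 they stood at -0.49 and -1.47. Cd44 went the other way, with an NPC mean of 0.86 and XEN at 2.31. Col3a1 and Col5a2, neighbouring collagen genes on chromosome 1, were even later in NPCs (-2.32 and -2.45) than in ESCs (-1.21 and -1.39), and early in MEFs (1.87 and 2.15).

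Most called windows were also called in each allele alone. Of windows called earlier in MEFs from both alleles averaged, 83.9% were also called in each allele alone, and of windows called later, 79.5%. Opposite signs in the alleles were seen in 17 and 21 called windows. The windows were chosen by the mean of both alleles, which leaves little room for opposite signs, so this count is a description. The alleles come from the same libraries, so they are repeat measurements of the same cells and not replicates.

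Fragmentation of the timing profile was counted as the number of boundaries between early and late runs, with each line split at its own autosomal median and runs under 200 kb merged. The ESC lines had 1160 boundaries in F121, 1331 in F121-6, 1309 in F121-9, 1272 in F123 and 1021 in Cas129. Embryos 1 to 4 had 1036, 1050, 1047 and 1078. The means were 1218.6 ± 129 (SD, n = 5) and 1053 ± 18 (n = 4). The difference of -166 did not pass (exact two-sided permutation test, p = 0.0794, and 0.0159 is the smallest p that 5 against 4 allow). Cas129, the one ESC line with Cas first in the cross, lay below all embryos while the other 4 lines lay above them. Without it the ESC mean was 1268 ± 76 and the groups no longer overlapped, which fixes the exact p at 0.0286, the smallest that 4 against 4 allow. Leaving out any other line or embryo gave an exact p of 0.143. Runs had a median length of 950 to 1250 kb in ESC lines and 1250 to 1300 kb in embryos.

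**Figure D5:**
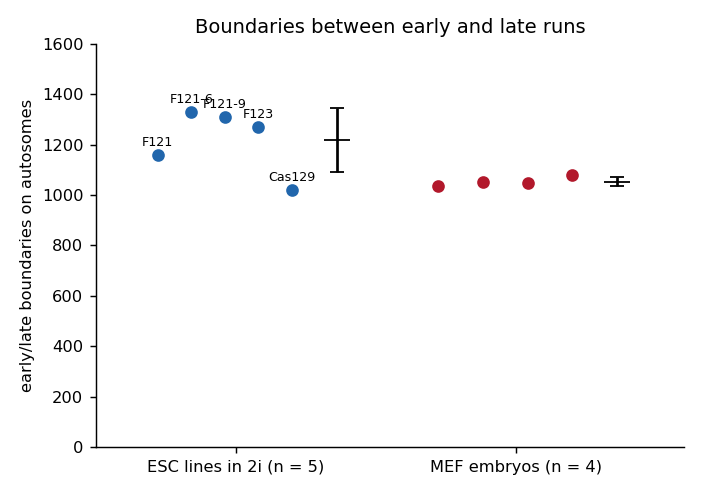
Number of early/late boundaries on the autosomes (vertical, from 0) for each ESC line and each MEF embryo (points), with the mean and SD beside them. The embryos sit together between 1036 and 1078, and the ESC lines spread from 1021 in Cas129 to 1331 in F121-6.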

How the data were processed

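The authors deposited a ratio of early over late signal for each allele in 50 kb windows of mm10, per the file headers, and these values are taken as log2. Their log base and scaling are not stated. The submitters' processing notes name Bowtie2, SAMtools and bedtools. Without counts in the table, library depth is unknown. Columns were matched to lines and embryos by name.

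The 43941 autosomal windows of 34 columns were quantile normalized, since the deposited medians were -0.79 to -0.58 in ESC lines and -0.10 to 0.03 in embryos, which makes all columns equal in distribution. Alleles were averaged per profile, and profiles per line or embryo, the replicate. Differences (MEF minus ESC) were tested with limma 3.58.1 in R 4.3.3 (lmFit, eBayes, two-sided, Benjamini-Hochberg over all windows) and called at an adjusted p below 0.05 and a size of at least 1. In simulated data with differences of 2 in 200 windows, 184 were recovered with 3 false calls. The simulated noise was independent between windows and no column was rescaled. It therefore cannot show errors that come from scaling or from neighbouring windows that vary together. Other profiles were mapped to the same distribution afterwards. Called windows were joined over gaps of up to 2 windows. RefSeq genes (GRCm38.p6) were placed at their 5' end, or within 100 kb of it in the nearest window. Such a window can lie beside the gene, as for Tgfbr1, Tgfbr2, Asz1, Mov10l1, Sox11 and Zfp970, and then gives the timing of its neighbourhood. Of 20665 protein-coding genes 16457 had a strand, and the rest were placed by midpoint.

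Named are, per direction, the 10 regions with the highest mean change with their nearest genes. Of each list it names called genes in full up to 6 per direction, otherwise mainly the 5 largest, and others where it says so. The values of 3 of these genes are not reported here. The members and lists were chosen with earlier results of these data known. Same-numbered profiles of a line and an embryo did not deviate together (r -0.13 to 0.11), so replicate numbers were not taken as pairs. Alternatives were the scaling, the threshold, single alleles, single replicates, media, labelled sex, cross and leaving out lines or embryos.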

Additional observations from a re-analysis of the deposited data

Results flagged for a closer look

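A line or embryo far from the rest of its group was looked for at the windows of 217 named genes, the 20 named regions and the number of boundaries, in 440 groups of values by Dixon's test. It was found in 27 of them (6.14%), where chance gives about 1 in 20. Genes that were not called were left out of this search. Among them F121-6 was later than the other ESC lines at Ltbp4 (1.37 against 3.16 to 3.59), Ltbp3 (1.43 against 3.31 to 3.76) and Tbx21 (1.13 against 3.07 to 3.50). At Lyz2 it was earlier (3.565 against 2.394 to 2.641). At the genes and regions searched, F121-6 stood apart most often in ESCs. It was earlier than the other lines at Mylk (1.62 against 0.811 to 1.03), Ttn (2.85 against 1.23 to 1.64), Esrp1 (3.21 against 2.13 to 2.42), Col10a1 (2.63 against 1.79 to 1.94), Foxn2 (3.38 against 2.42 to 2.58) and over the region of Cd86, Casr and Ildr1 (2.17 against 1.00 to 1.17), and later at Ptprc (-3.93 against -3.43 to -3.23). Cas129 was later than the others at Kit, a receptor of blood and germ cells (-0.321 against 1.14 to 1.28), Tgfbr3 (-1.09 against -0.308 to -0.128), Fgf12 (-1.22 against -0.438 to -0.254) and Sox11 (-3.59 against -2.43 to -2.0). At Kit, Cas129 lay nearer to the embryos, which had -0.88 to -0.58, than to the other ESC lines, and Kit was not called with Cas129 as the only ESC line (-0.45). F121-9 was earlier at Afp and Alb, in 1 window (0.408 against -0.163 to -0.105), and at Vmn2r62 (2.36 against 1.54 to 1.74). F123 was later at Cxcl1 (-3.25 against -2.65 to -2.41) and Gabra6 (-1.72 against -1.52 to -1.45), and F121 earlier at Grik3 (2.74 against 2.33 to 2.42).

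In MEFs, embryo 4 stood apart at Sox2 (-1.87 against -2.46 to -2.39), Foxc2 and Foxl1, in 1 window (3.21 against 2.66 to 2.73), Ttr (-1.19 against -1.79 to -1.70), Cxcl3, Cxcl5 and Cxcl15, in 1 window (3.05 against 2.59 to 2.66), Cdh11 (-0.785 against -0.335 to -0.260), Pax1 (-2.19 against -2.59 to -2.53), Kcnv2 (0.978 against 0.469 to 0.528), Kcna5 (0.433 against -0.439 to -0.317) and over the region of Cav2, Cav1 and Tes (1.59 against 1.84 to 1.88). Embryo 2 did so at Twist1 (-0.908 against -0.704 to -0.682) and Grem1 (2.00 against 2.24 to 2.27).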

How the results depend on the processing

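The call of earlier windows (9148) moved to 13903 with no size threshold, 4117 at a difference of at least 2 and 5553 on percentile ranks with a threshold of 20 points. The call of later windows (9899) moved to 15867, 3383 and 4945 in these settings, and to 6099 on the deposited values, where 13353 windows were earlier. All other settings stayed within 1.5 times, and leaving out 1 line or embryo gave 9090 to 9226 earlier and 9773 to 10040 later. With the profiles, a replicate block and the line as a random block, 9173 and 9914 windows were called, and with the spread estimated separately in ESCs and MEFs, chosen after seeing the data, 9149 and 9899. No called window was called the other way in any setting. For boundaries (difference -166) the exact p fell to 0.0159 with runs of at least 8 windows (-111) and with replicate 1 profiles only (-174). At 8 windows Cas129 had 826 boundaries, close to the 823 of embryos 2 and 3. The exact p rose to 0.127 with runs of at least 1 window (-221) and to 0.286 without embryos 1 and 3 (-155). Leaving out 1 line or embryo gave differences from -215 to -138. The 217 called genes that were looked at fall in 199 windows, of which 80 lost the call in at least 1 setting and none changed sign. On the deposited values the balance of a list turned towards earlier for skeletal muscle (4 earlier, 2 later), TGF-beta ligands (6, 2), TBX (4, 2), SOX (4, 3), glutamate receptor (5, 4) and housekeeping genes (3, 1), and was even for MMP (2, 2) and endothelial genes (3, 3). Other list counts that moved by over 1.5 times there were earlier WNT (4 to 12), contractile (3 to 7), integrin (8 to 14), potassium channel (7 to 11), olfactory (36 to 75), vomeronasal (5 to 21) and Zfp genes (11 to 27) and later vomeronasal genes (135 to 76). On percentile ranks, later olfactory genes fell from 474 to 288 and earlier keratin genes from 16 to 0. These are examples. The lists gave 46 counts of at least 3 called genes in a direction, with 1104 values under the alternative settings. Of these values 101 moved that far, 54 of them in settings other than the size threshold. The cause was not tested. Unknown depth leaves counting error unmeasured, and neighbouring windows correlated at 0.988 to 0.996, so counts of windows are not counts of independent events.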
